A study of Mus musculus with 48 samples.

Results

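The 10 genes described here supply cells with amino acids and with serine-derived one-carbon units, and were chosen by gene symbol as known targets of the transcription factor ATF4. They are 10 of the 55335 gene rows in each of 4 deposited expression tables: the carrier genes Slc3a2, Slc7a5, Slc7a1, Slc7a3, Slc38a2 and Slc1a4, and the enzyme genes Asns, Phgdh, Psat1 and Mthfd2. The study asked how transcripts of osteocytes, the long-lived cells inside mineralised bone, change with age and under stress. RNA selected on oligo(dT) beads was sequenced from material described as wild-type C57BL/6J, a description not checked here for the cell line. The 27 libraries with values formed 9 groups of 3. MLO-Y4 is an osteocyte-like mouse cell line, and its cells received oligomycin A, an inhibitor of the mitochondrial ATP synthase, at 50 µM for 1 h, or the same volume of the solvent DMSO (vehicle) for 1 h. The supernatant of each culture was then put on other, normally cultured MLO-Y4 cells for 2 h, which gave the recipients of oligomycin A supernatant and the recipients of vehicle supernatant. Whether the supernatant still held oligomycin A is not stated. Further MLO-Y4 cells received 2 µM ADP, or none, for 2 h. Long bone and parietal bone fragments of mice aged 1 month were cultured for 48 h in medium conditioned for 24 h by other bone fragments, in groups titled transfer and control, and the labels used here do not say which donors' medium each group received. The last group was untreated cortical bone of the femur and tibia of mice aged 18 months. The titles and the protocol were followed where the treatment label differed: it names oligomycin A for the vehicle libraries too, at 50 mM, the strength of the stock solution in the protocol. The labels do not say that replicates were separate cultures or animals, so each p-value reflects the spread among these libraries alone, and that spread may be technical.

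Values are FPKM, which scale the fragments of a gene to its length and to the library's sequenced fragments, so levels of different genes can be set side by side within a library. Depth estimated from the steps between low values was about 15.0 to 25.4 M fragments in MLO-Y4 libraries, and roughly 28.9 to 33.7 M in old bone and 1.62 to 6.40 M in young bone, and in bone the steps were faint. Vehicle replicate 2 stood apart, since 7S and rRNA-like rows made up 27.17% of its summed FPKM and 0.2111% to 0.4144% of that of the other 11 libraries in its table. In young bone, satellite-like rows took 66.06%, 5.795% and 89.93% of summed FPKM in transfer replicates 1, 2 and 3, and 86.11%, 88.58% and 81.67% in the control replicates. Of the osteocyte markers, Sost was listed at 0 in all 18 MLO-Y4 libraries and Dmp1, Mepe and Fgf23 stood at or near 0 there, while Pdpn ranged from 151 to 290.0 FPKM. Phex ranged from 7.041 to 12.85 FPKM in these libraries, against 0.1948 to 0.4624 in old bone. In old bone the summed FPKM of 6 erythroid genes was 356500 to 379000 and that of 6 neutrophil genes 97550 to 102900, and the part of such cells in the levels given below was not tested. The protocol says that this tissue was harvested with its marrow.

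Slc3a2 encodes the heavy chain CD98hc, a glycoprotein that brings light chains such as the large neutral amino acid transporter LAT1, the product of Slc7a5, to the plasma membrane. When eIF2α is phosphorylated under amino acid shortage, endoplasmic reticulum stress or mitochondrial stress, bulk translation falls while ATF4 is translated, and ATF4 pairs with C/EBP proteins on a composite DNA element to raise transcription of carriers, asparagine synthetase and serine synthesis enzymes. Phgdh and Psat1 encode the first and second enzymes of serine synthesis from 3-phosphoglycerate, and Mthfd2 a mitochondrial enzyme that passes on the one-carbon units drawn from serine. In mice, osteoblasts, the bone-forming cells from which osteocytes derive, take up proline for their collagen-rich matrix through the product of Slc38a2.

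Promoter windows from 250 bases before to 50 after a RefSeq start (GRCm38.p6) were found for 8 of the 10 genes, and all lie on the minus strand. They were searched on both strands for TGATGNAA, the core of the C/EBP-ATF composite element, whose other strand reads TTNCATCA. The 4 windows shown are those of the 2 genes with a match, given in capitals, and those of the 2 genes whose transcripts passed the test in both oligomycin A comparisons, which hold no match. Asns has its match on the gene's own strand, beginning 23 bases before the start (chr6:7693160-7693459). Slc1a4 has its match on the other strand, beginning 4 bases before the start (chr11:20332664-20332963). The windows of Slc3a2 (chr19:8713848-8714147) and Slc38a2 (chr15:96699679-96699978) are written in lower case throughout.
Asns: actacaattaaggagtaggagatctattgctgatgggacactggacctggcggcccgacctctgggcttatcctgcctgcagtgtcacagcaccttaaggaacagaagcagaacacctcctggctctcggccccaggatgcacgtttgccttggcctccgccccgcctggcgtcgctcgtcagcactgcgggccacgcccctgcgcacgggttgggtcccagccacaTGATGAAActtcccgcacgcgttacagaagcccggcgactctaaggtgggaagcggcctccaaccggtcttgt
Slc1a4: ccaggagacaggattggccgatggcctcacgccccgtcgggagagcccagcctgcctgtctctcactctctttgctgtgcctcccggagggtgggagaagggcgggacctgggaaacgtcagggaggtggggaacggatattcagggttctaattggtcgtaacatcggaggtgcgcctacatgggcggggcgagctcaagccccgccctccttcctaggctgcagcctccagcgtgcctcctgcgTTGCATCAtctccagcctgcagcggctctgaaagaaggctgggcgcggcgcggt
Slc3a2: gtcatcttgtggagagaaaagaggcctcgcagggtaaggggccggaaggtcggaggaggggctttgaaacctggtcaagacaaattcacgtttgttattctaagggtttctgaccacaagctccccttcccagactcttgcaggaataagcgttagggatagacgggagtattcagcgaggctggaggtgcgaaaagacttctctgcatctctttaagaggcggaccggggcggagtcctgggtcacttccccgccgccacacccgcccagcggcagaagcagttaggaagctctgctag
Slc38a2: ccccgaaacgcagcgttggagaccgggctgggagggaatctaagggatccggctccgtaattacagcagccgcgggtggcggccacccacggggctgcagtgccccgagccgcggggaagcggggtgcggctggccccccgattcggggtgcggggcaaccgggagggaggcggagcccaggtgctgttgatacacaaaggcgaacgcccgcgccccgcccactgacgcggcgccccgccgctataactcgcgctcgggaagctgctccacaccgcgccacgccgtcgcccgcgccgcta
Of 32851 windows of this length 3.97% hold the motif, as do the windows of 4.51% of 27025 genes. The windows of Slc7a1, Phgdh, Psat1 and Mthfd2 hold none, and a motif outside a window would not have been seen. The RefSeq starts used for Slc3a2, Psat1 and Mthfd2, and 1 of 2 for Slc7a1, lie far inside the genes as GENCODE M21 draws them (for Slc3a2, chromosome 19, 8706882 to 8723369). Those of Asns, Phgdh and Slc38a2 lie just inside the drawn edges.

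In vehicle-treated MLO-Y4 cells, 9 of the 10 genes were expressed well above the filter of 1 FPKM and Slc7a3, a cationic amino acid transporter, was nearly silent. Slc7a5 averaged 51.6 ± 5.26 FPKM, Slc38a2 50.3 ± 1.92, Mthfd2 47.1 ± 4.98, Asns 44.8 ± 4.16, Slc7a1 42.0 ± 5.48 and Slc3a2 39.9 ± 2.47 (SD, n = 3 each). The ranges of neighbours in this order overlapped. Within single libraries Asns exceeded Slc7a1 each time, while the other neighbours changed places, so the order of those others is not resolved. Psat1 at 31.5 ± 1.86 and Phgdh at 28.3 ± 2.15 overlapped in range and lay below the others, and Slc1a4 lay lower again at 17.8 ± 1.05. Psat1 exceeded Phgdh within each vehicle library. Slc7a3 had 0.63, 0.40 and 0.59 FPKM in the vehicle libraries, and its mean was below 1 in every group of the series, so it was tested in no comparison. In untreated MLO-Y4 cells of the ADP experiment, which are in another table, the order was led by Slc38a2 at 61.6 ± 2.25 and Slc7a5 at 53.3 ± 2.53, while Slc3a2 at 28.6 ± 2.20 lay above only Slc1a4 and Slc7a3.

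**Figure D1:**
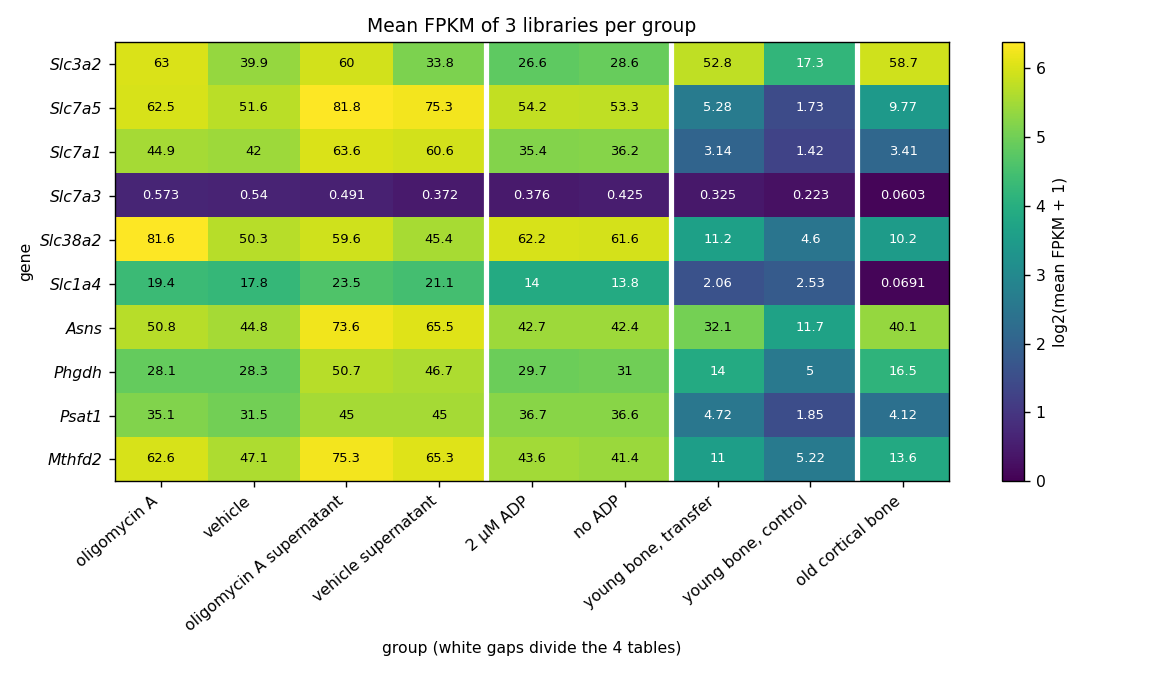
Mean FPKM of the 10 genes (rows) in the 9 groups (columns), each a mean of 3 libraries, with colour on a log2(mean FPKM + 1) scale and white gaps between tables, across which no test was made. Slc3a2 and Asns lead in bone, and Slc7a5 is among the highest in MLO-Y4 cells. Slc7a3 has the lowest mean in every group, but in old bone its range overlaps that of Slc1a4, also near 0.

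Bone showed another order. In old cortical bone Slc3a2 had 51.1, 60.5 and 64.5 FPKM and Asns, which makes asparagine from aspartate, had 38.7, 46.3 and 35.2 FPKM. These 2 genes did not overlap with each other or with the rest. Phgdh (16.5 ± 3.05 FPKM, SD, n = 3) and Mthfd2 (13.6 ± 2.96) overlapped, as did Slc38a2 (10.2 ± 0.525) with Slc7a5 (9.77 ± 1.17), and Psat1 (4.12 ± 1.41) with Slc7a1 (3.41 ± 0.148). Within each library Phgdh exceeded Mthfd2, while the order of the other pairs changed between libraries. Slc1a4, a carrier of alanine, serine and cysteine, had 0.20, 0.01 and 0 FPKM there. In such bulk tissue, fewer cells of a type and less RNA per cell cannot be told apart, and no library of young cortical bone without culture was used, so no effect of age can be read from these levels.

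The ratio of Slc3a2 to Slc7a5, the heavy chain over its light chain, is free of library scaling. It was 5.80, 6.41 and 5.83 in old bone, 9.15 to 14.6 in the transfer group of young bone and 7.65 to 12.6 in its control group. In MLO-Y4 cells it was 0.953, 0.983 and 1.09 with oligomycin A, against 0.705, 0.805 and 0.817 with vehicle. It was 0.660, 0.703 and 0.883 in recipients of oligomycin A supernatant, against 0.386, 0.558 and 0.440 in recipients of vehicle supernatant. Neither pair of groups overlapped, with the higher ratio each time on the oligomycin A side. Slc3a2 alone was higher in both comparisons and Slc7a5 passed in neither (below), so these ratios are no separate finding. How often ratios of other genes separate was not counted. With ADP it was 0.482 to 0.508, against 0.487 to 0.566 without, and these groups overlapped. The bone libraries thus held several Slc3a2 transcripts for each Slc7a5 transcript, and the MLO-Y4 libraries about 1 or fewer. The ratio of Psat1 to Phgdh, consecutive enzymes of serine synthesis, was 0.179 to 0.294 in old bone and between 0.776 and 1.32 in the 12 libraries of the oligomycin A table.

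Oligomycin A for 1 h was compared with vehicle to see what blocking ATP synthase does to transcripts. Slc3a2 and Slc38a2 rose, by 0.65 ± 0.09 and 0.69 ± 0.05 (SE) on the scale of log2(FPKM + 1), and the other 7 genes tested did not pass. Values were tested with limma across all 11902 genes with a mean of at least 1 FPKM, with p adjusted by Benjamini-Hochberg and called below 0.05. The 2 of 9 genes that were higher, with 0 lower, stand beside 5.34% of all tested genes called in either direction and 3.71% called higher.

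**Figure D2:**
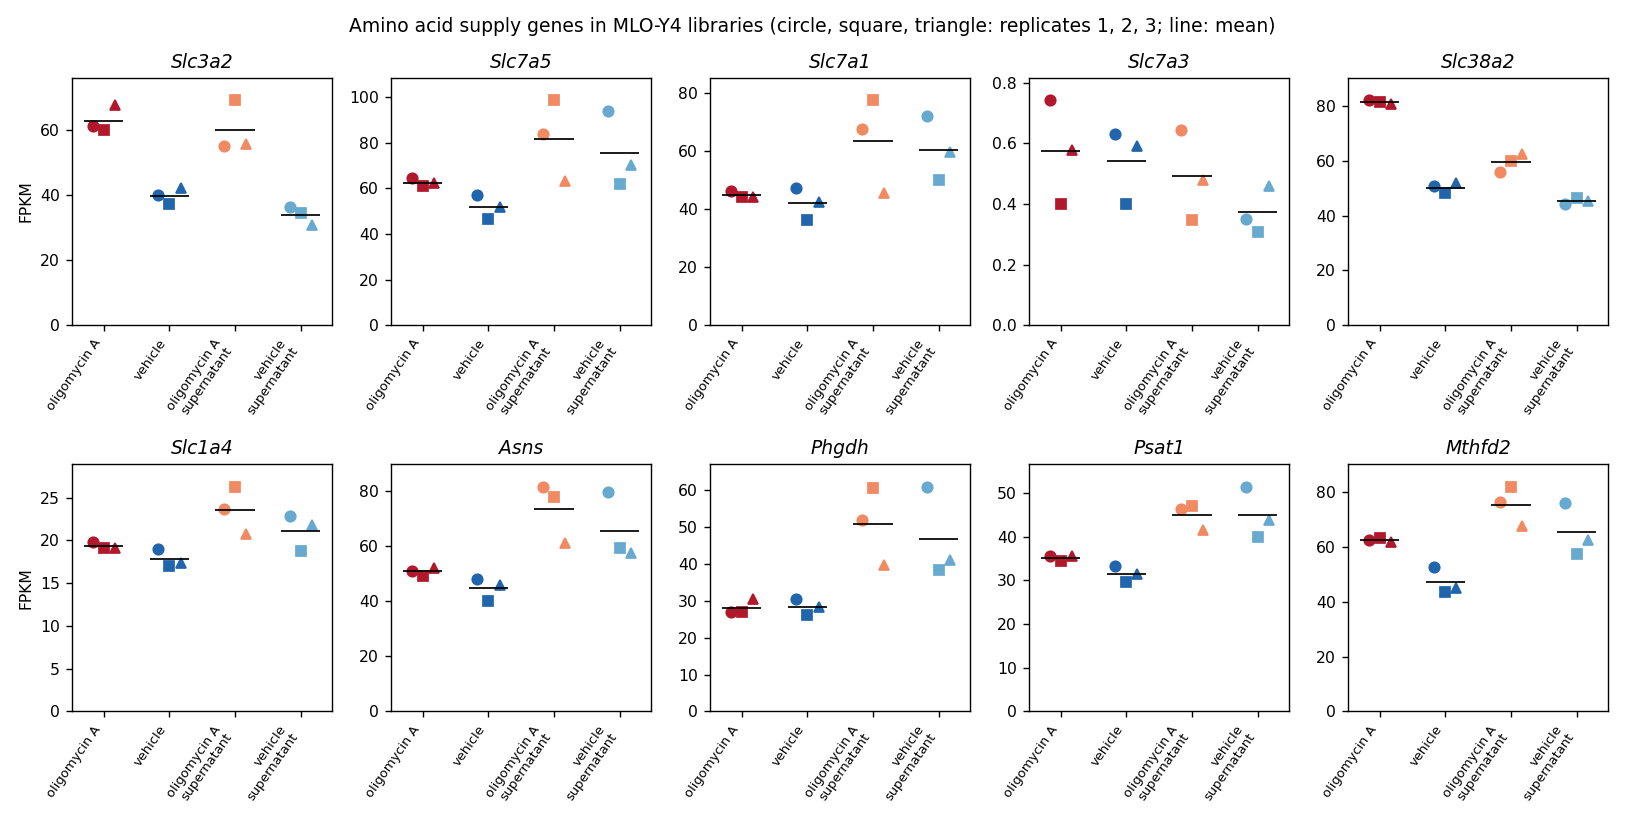
FPKM of each of the 10 genes in the 12 libraries of the oligomycin A table, with a linear axis from 0, points for the libraries and a line for each group's mean. For Slc3a2 and Slc38a2 every library on the oligomycin A side lies above every library of its vehicle side, in treated cells and in recipients, while Slc7a5, Slc7a1, Asns, Phgdh, Psat1 and Mthfd2 are higher in recipients of vehicle supernatant than in vehicle-treated cells.

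Slc3a2 had 61.3, 60.0 and 67.7 FPKM with oligomycin A, against 40.1, 37.3 and 42.2 FPKM with vehicle (limma adjusted p = 0.00278). Slc38a2 encodes SNAT2, a sodium-coupled carrier of small neutral amino acids such as glutamine and alanine. It had 82.1, 81.6 and 81.0 FPKM with oligomycin A, against 50.9, 48.1 and 51.8 FPKM with vehicle (limma adjusted p = 1.35e-05). For both genes the lowest treated library lay well above the highest vehicle library. Both were called in all 16 alternative fits, with a log2 fold change of 0.59 to 0.80 for Slc3a2 and of 0.66 to 0.84 for Slc38a2.

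Mthfd2 lay at the threshold. It had 62.6, 63.4 and 61.9 FPKM with oligomycin A, against 52.8, 43.4 and 45.2 FPKM with vehicle, a log2 fold change of 0.41 ± 0.11 (limma adjusted p = 0.0506). The groups did not overlap, and the gene was called in 8 of 16 alternatives. Without vehicle replicate 2, the library with the large noncoding share, its log2 fold change was 0.35, the lowest of the 16.

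The remaining carriers differed by less. Slc7a5 had 64.3, 61.0 and 62.1 FPKM with oligomycin A, against 56.9, 46.4 and 51.7 with vehicle, so the groups did not overlap, but the log2 fold change of 0.27 ± 0.17 did not pass (limma adjusted p = 0.363). Slc1a4 had 19.8, 19.2 and 19.1 FPKM with oligomycin A, against 19.0, 17.0 and 17.4 with vehicle (0.12 ± 0.09, limma adjusted p = 0.485). Slc7a1, a carrier of arginine and lysine, had 46.4, 44.1 and 44.1 FPKM with oligomycin A, against 47.3, 36.3 and 42.3 with vehicle, and its groups overlapped (0.10 ± 0.18, limma adjusted p = 0.786).

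Among the enzymes, Asns had 50.9, 49.3 and 52.3 FPKM with oligomycin A, against 48.1, 40.1 and 46.0 with vehicle (0.18 ± 0.13, limma adjusted p = 0.444). Psat1 had 35.5, 34.4 and 35.5 FPKM with oligomycin A, against 33.3, 29.6 and 31.5 with vehicle (0.15 ± 0.09, limma adjusted p = 0.317). Phgdh had 26.8, 26.9 and 30.6 FPKM with oligomycin A, against 30.4, 26.1 and 28.4 with vehicle (-0.01 ± 0.17, limma adjusted p = 0.983). Asns and Psat1 did not overlap between the groups and Phgdh did. In all, 7 of the 9 genes lay entirely higher with oligomycin A, which 16.8% of all tested genes did, and the median log2 fold change was 0.18 for the 9 genes and -0.0037 for all genes. Vehicle replicate 2 was the lowest vehicle library for all 10 genes. With libraries rescaled after removal of abundant noncoding rows it was the lowest for 6 of the 10, and no longer for Slc38a2, Slc1a4, Psat1 and Mthfd2.

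Genes beside these in the pathway behaved unevenly. Their lists were chosen with earlier results of these data known. The counts stand beside 5.34% of all tested genes called and 3.71% called higher. Of 23 tested regulators and targets of ATF4 outside amino acid supply, 12 rose and 0 fell, among them Ddit3, the stress transcription factor CHOP, at 418 ± 8.93 FPKM with oligomycin A, against 48.6 ± 2.15 with vehicle (log2 fold change 3.08), Chac1, which degrades glutathione, at 2.27 and Ddit4, an inhibitor of mTORC1, at 1.63. Atf4 itself, named beyond the rule for naming list genes, had 360.0 ± 75.7 FPKM with oligomycin A, against 154 ± 24.7 with vehicle (1.21 ± 0.20, limma adjusted p = 0.00581). Of 13 other amino acid transporters 0 passed, nor did any of 22 other serine, glycine and folate genes or of 25 genes of amino acid sensing. The lowest p-value among the transporters was that of Slc36a1, a lysosomal carrier (-0.71, limma adjusted p = 0.0897), and among the sensing genes that of Lamtor1, a lysosomal anchor of mTORC1 (-0.23, limma adjusted p = 0.0692). Of 20 other amino acid synthesis genes 1 rose, Glul, glutamine synthetase, by 0.33, and 1 fell.

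**Figure D3:**
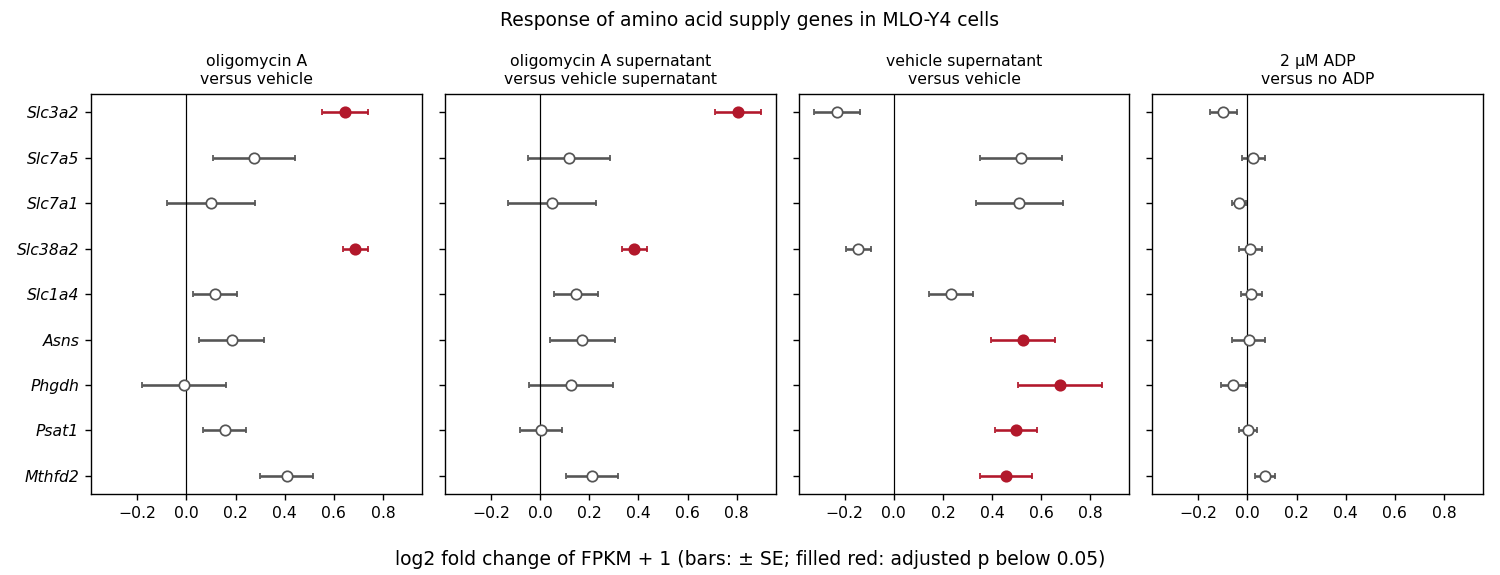
Log2 fold change of FPKM + 1 with its SE for the 9 tested genes in 4 comparisons of MLO-Y4 groups, 3 libraries each; filled red points passed an adjusted p below 0.05 by limma. Slc3a2 and Slc38a2 pass in treated cells and in recipients, Psat1, Mthfd2, Asns and Phgdh pass between the vehicle groups, and with ADP every point lies between -0.10 and 0.07.

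The supernatants were compared to see whether treated cells pass a signal to others. Slc3a2 rose in recipients of oligomycin A supernatant by 0.80 ± 0.09 and Slc38a2 by 0.38 ± 0.05 (SE) on the log2 scale, and the other 7 genes did not pass. These 2 of 9 genes, with 0 lower, stand beside 0.386% of 11902 tested genes called and 0.277% called higher. Slc3a2 had 55.3, 69.2 and 55.6 FPKM in recipients of oligomycin A supernatant, against 36.2, 34.4 and 30.9 FPKM in recipients of vehicle supernatant (limma adjusted p = 0.00409). Slc38a2 had 56.1, 59.9 and 62.6 FPKM in recipients of oligomycin A supernatant, against 44.2, 46.5 and 45.5 FPKM in recipients of vehicle supernatant (limma adjusted p = 0.00749). Both genes were free of overlap, which 6.65% of all tested genes were in this direction. In a fit of these 6 libraries alone, neither passed (limma adjusted p = 0.125 for Slc3a2 and 0.166 for Slc38a2, with the same fold changes), and with libraries rescaled to one total Slc38a2 did not pass (limma adjusted p = 0.631).

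The other 7 genes overlapped between the recipient groups. Slc7a5 had 83.8, 98.5 and 63.0 FPKM in recipients of oligomycin A supernatant, against 93.9, 61.7 and 70.2 in recipients of vehicle supernatant (0.12 ± 0.17, limma adjusted p = 0.958). Asns had 81.6, 78.0 and 61.3 FPKM in recipients of oligomycin A supernatant, against 79.5, 59.4 and 57.5 in recipients of vehicle supernatant (0.17 ± 0.13, limma adjusted p = 0.858). Mthfd2 had 76.5, 81.9 and 67.6 FPKM in recipients of oligomycin A supernatant, against 76.1, 57.2 and 62.5 in recipients of vehicle supernatant (0.21 ± 0.11, limma adjusted p = 0.686). In each of these 3 genes, replicate 1 of the vehicle supernatant group lay within the range of the oligomycin A supernatant group. The log2 fold changes of Slc7a1, Slc1a4, Phgdh and Psat1 were 0.05 ± 0.18, 0.15 ± 0.09, 0.13 ± 0.17 and 0.00 ± 0.09. The median was 0.15 for the 9 genes and -0.0039 for all genes.

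Around them, 4 of 23 ATF4 pathway genes rose in recipients and 0 fell: Ddit3 by 1.18, Chac1 by 1.38, Sesn2, a stress-induced inhibitor of mTORC1, by 0.94, and Ddit4 by 0.62. The list counts stand beside 0.386% of all tested genes called and 0.277% called higher. Atf4 had 221 ± 60.0 FPKM in recipients of oligomycin A supernatant, against 133 ± 8.56 in recipients of vehicle supernatant, and did not pass (limma adjusted p = 0.259). None of 13 transporters, 22 serine, glycine and folate genes, 20 synthesis genes or 25 sensing genes passed. The lowest p-value among the synthesis genes was that of Pck2, mitochondrial phosphoenolpyruvate carboxykinase, at 0.38 (limma adjusted p = 0.317).

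The recipient response minus the treated response was tested as a difference of its own, and 0 of the 9 genes passed by limma, beside 0.445% of all tested genes. At an unadjusted p below 0.05 there was 1 gene of the 9, Slc38a2, a share near the 10.7% of all genes. Its difference was -0.30 ± 0.07 on the log2 scale, which did not pass (limma adjusted p = 0.129). It passed in 2 of 21 alternatives and not in the other 19, with adjusted p between 0.0337 and 0.684. The difference for Slc3a2 was 0.16 ± 0.13 (limma adjusted p = 0.716). For the other 7 genes it lay between -0.20 and 0.14. Among ATF4 pathway genes 2 of 23 had a smaller response in recipients, Ddit3 by a log2 difference of -1.90 and Ddit4 by -1.01.

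The vehicle groups differ from each other in time, 2 h against 1 h, and in medium, supernatant against fresh medium, and these cannot be told apart. This comparison shares its libraries with the treated and the recipient comparisons, so its values are set beside theirs without a test of likeness. The genes of the 4 enzymes, Psat1, Mthfd2, Asns and Phgdh, were higher in recipients of vehicle supernatant and 0 genes lower, 4 of 9, beside 14.7% of all tested genes called and 9.49% called higher.

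Psat1 had 51.4, 39.9 and 43.7 FPKM in recipients of vehicle supernatant, against 33.3, 29.6 and 31.5 FPKM in vehicle-treated cells (0.50 ± 0.09, limma adjusted p = 0.00397). Phgdh had 60.9, 38.4 and 40.9 FPKM in recipients of vehicle supernatant, against 30.4, 26.1 and 28.4 in vehicle-treated cells (0.68 ± 0.17, limma adjusted p = 0.0247). Asns had 79.5, 59.4 and 57.5 FPKM in recipients of vehicle supernatant, against 48.1, 40.1 and 46.0 in vehicle-treated cells (0.53 ± 0.13, limma adjusted p = 0.0221). None of these genes overlapped between the groups, and in each the first recipient replicate was the highest of the 6 libraries. Mthfd2, with 76.1, 57.2 and 62.5 FPKM in recipients of vehicle supernatant, against 52.8, 43.4 and 45.2 in vehicle-treated cells, was free of overlap too (0.46 ± 0.11, limma adjusted p = 0.0168).

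The carriers did not pass the adjusted threshold, though the log2 fold changes of Slc7a5 and Slc7a1 were larger than those of Psat1 and Mthfd2, and the difference between carriers and enzymes was not tested. At an unadjusted p below 0.05 there were 9 of 9 genes in either direction, beside 30% of all tested genes. Slc7a5 had 93.9, 61.7 and 70.2 FPKM in recipients of vehicle supernatant, against 56.9, 46.4 and 51.7 in vehicle-treated cells (0.52 ± 0.17, limma adjusted p = 0.0589). Slc7a1 had 72.1, 49.9 and 59.8 FPKM in recipients of vehicle supernatant, against 47.3, 36.3 and 42.3 in vehicle-treated cells (0.51 ± 0.18, limma adjusted p = 0.0792). Both were free of overlap, as were 6 of the 9 genes in this direction, beside 21.6% of all tested genes. Slc1a4 overlapped, with 22.8, 18.7 and 21.9 FPKM in recipients of vehicle supernatant and 19.0, 17.0 and 17.4 in vehicle-treated cells (0.23 ± 0.09, limma adjusted p = 0.108). Slc3a2 and Slc38a2 stood on the other side: both lay lower without overlap, which 12.6% of all tested genes did, at log2 fold changes of -0.23 ± 0.09 (limma adjusted p = 0.123) and -0.14 ± 0.05 (limma adjusted p = 0.0843). Slc38a2 passed as lower in 3 of 16 alternatives, all of them other scalings of the libraries. Across the 16 its log2 fold change ran from -0.21 to -0.02, with limma adjusted p between 0.00673 and 0.939.

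Of these 4 calls, Psat1 alone was kept in all 16 alternatives. Without vehicle replicate 2 only Psat1 passed, and likewise without replicate 1 of the vehicle supernatant group. Without vehicle replicate 3, Psat1 and Asns passed. Log2 fold changes without vehicle replicate 2 were 0.45 for Asns, 0.62 for Phgdh and 0.40 for Mthfd2.

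The surrounding lists are given beside the same 14.7% of all genes called. Of 13 transporters 5 rose and 0 fell, among them Slc7a11, the cystine-glutamate exchanger, at 7.97 ± 2.63 FPKM in recipients of vehicle supernatant, against 3.39 ± 0.475 in vehicle-treated cells (1.00 ± 0.25), and Slc6a9, a glycine carrier, at 0.84. Of 22 serine, glycine and folate genes 7 rose, among them Slc19a1, the reduced folate carrier, at 0.60, Gcsh, a subunit of the glycine cleavage system, at 0.37, and Psph, the third enzyme of serine synthesis, at 0.40, and 1 fell, the folate dehydrogenase gene Aldh1l1 at -0.34. Of 20 synthesis genes 1 rose, Cth, which makes cysteine, by 0.62, and 3 fell, Glul by 0.72, the glutaminase gene Gls2 by 0.49 and Asl by 0.25. Of 23 ATF4 pathway genes 5 rose and 0 fell, led by Cebpg, a partner of ATF4, at 0.64, and the pseudokinase gene Trib3 at 1.26. Atf4 had 133 ± 8.56 FPKM in recipients of vehicle supernatant, against 154 ± 24.7 in vehicle-treated cells (limma adjusted p = 0.546). Of 25 sensing genes 2 rose and 2 fell, among them Depdc5, a subunit of the GATOR1 complex that restrains mTORC1, at -0.30. The shares called among ATF4 pathway, synthesis and sensing genes lay nearer that of all genes than those among transporters and folate genes.

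The genes also differed in how they varied between libraries of a group. In the 12 libraries of the oligomycin A table, deviations from the group means on the log2 scale were correlated between genes. This is a description, since the points share libraries and their depth, and the division below was made after the values were seen. Among Slc7a5, Slc7a1, Slc1a4, Asns, Phgdh, Psat1 and Mthfd2, the 21 pairs had a Pearson r of 0.705 to 0.974, with a median of 0.898, and the closest pair was Slc7a5 with Slc7a1. Slc3a2 had an r of 0.438 to 0.687 with these 7 genes. Slc38a2 had an r of -0.448 to -0.315 with them, and of 0.165 with Slc3a2. How often other genes correlate this closely in these libraries was not counted, so the values are not shown to be particular to these genes.

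**Figure D4:**
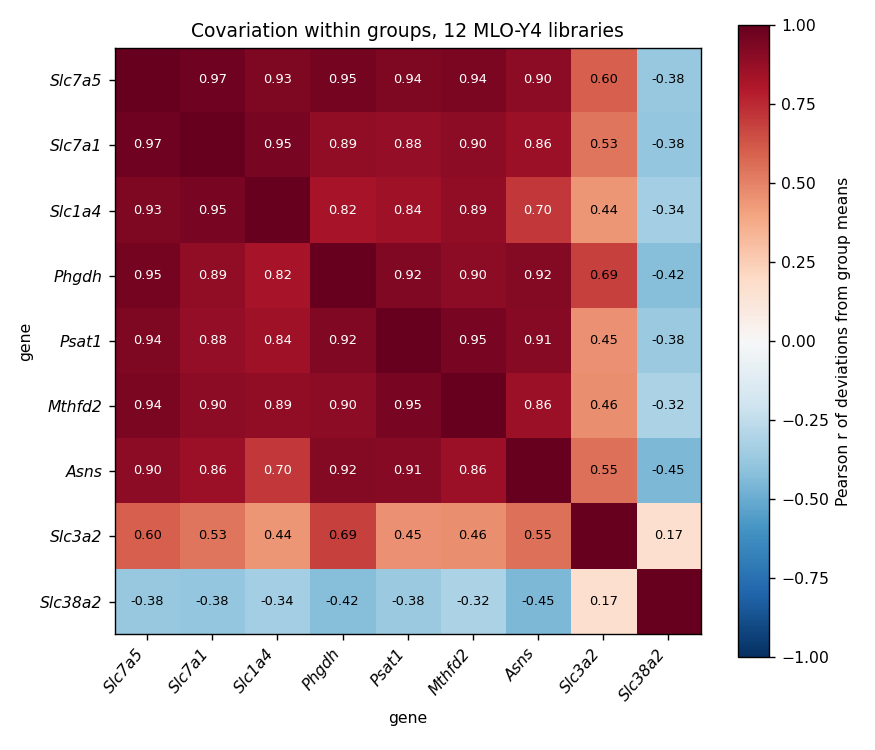
Pearson r between genes (rows and columns) of their deviations from group means in the 12 libraries of the oligomycin A table, on a colour scale from -1 to 1. The first 7 genes form a block with r of 0.705 to 0.974, and Slc38a2 has negative values with all 7.

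The same libraries stood out for all 7 genes. In recipients of oligomycin A supernatant, replicate 3 was the lowest for 7 of 7 genes and replicate 2 the highest for 6, and the highest library exceeded the lowest by 1.13 to 1.70 times. In recipients of vehicle supernatant, replicate 1 was the highest for 7 of 7 and replicate 2 the lowest for 6, by 1.22 to 1.59 times. In vehicle-treated cells, replicate 1 was the highest for 7 of 7 and replicate 2, the library with the large noncoding share, the lowest for 7 of 7. Replicates of oligomycin A-treated cells differed by 1.02 to 1.14 times at most, and those of vehicle-treated cells by 1.12 to 1.30 times. The spread reached further in the recipient groups than in the directly treated ones, and this difference in spread was not tested. In the 6 recipient libraries 7S and rRNA-like rows made up 0.3193% to 0.4116% of summed FPKM.

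The genes outside the list whose pattern was most like the mean of the 9 genes over these 12 libraries, among 7076 with a mean of at least 5 FPKM, were Tmem74 (Pearson r = 0.989), the tyrosyl-tRNA synthetase gene Yars (0.981), the transcription factor gene Ets2 (0.980), Herpud1 of endoplasmic reticulum-associated degradation (0.976) and the cysteinyl-tRNA synthetase gene Cars (0.972). Of the 9 genes themselves, Mthfd2 followed that mean most closely at 0.980, Slc7a5 came next at 0.968, and Slc3a2 and Slc38a2 stood at 0.433 and 0.121. Each of the 9 is part of that mean, so these values cannot be set beside those of the genes outside the list.

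ADP is a nucleotide ligand of purinergic receptors, and 2 µM for 2 h was compared with none. The 10 genes gave no call: by limma 0 of 9 tested passed, beside 0.0603% of 11604 tested genes, and 0 had an unadjusted p below 0.05, beside 5.84%. Slc3a2 had 26.5, 26.3 and 27.1 FPKM with ADP, against 31.0, 28.3 and 26.6 FPKM without, at a log2 fold change of -0.10 ± 0.06 (limma adjusted p = 0.863). Slc38a2 had 65.2, 62.4 and 58.9 FPKM with ADP, against 59.3, 63.7 and 62.0 without (0.01 ± 0.05, limma adjusted p = 0.987). Mthfd2 had 42.4, 42.9 and 45.6 FPKM with ADP, against 41.4, 39.9 and 43.0 without (0.07 ± 0.04, limma adjusted p = 0.864). All 9 genes overlapped between the groups, and 10.6% of all tested genes did not. With 9 genes, a count of 0 lies near that share. Standard errors of these genes were small, from 0.03 to 0.07. Atf4 had 129.6 ± 6.77 FPKM with ADP, against 158 ± 5.66 without (limma adjusted p = 0.431). Of the lists, 1 of 14 transporters passed and 0 genes of the other 4.

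In young bone fragments the comparison of transfer with control gave no call, and its precision was low. By limma 0 of 9 tested passed, beside 0.0243% of 16438 tested genes, 0 had an unadjusted p below 0.05, beside 2.24%, and 9 of 9 overlapped, while 4.08% of all tested genes did not. For Slc3a2, Asns and Slc38a2 the transfer libraries differed among themselves more than the control libraries did, while for Slc1a4 the control libraries differed more, by 3.10 times against 2.34 times. Slc3a2 had 34.4, 112.5 and 11.7 FPKM in the transfer group, against 19.9, 14.9 and 17.0 FPKM in the control group (1.03 ± 0.87, limma adjusted p = 0.900). Asns had 25.5, 62.6 and 8.28 FPKM in the transfer group, against 11.1, 9.05 and 15.1 in the control group (1.00 ± 0.84, limma adjusted p = 0.900). Slc38a2 had 10.3, 19.9 and 3.48 FPKM in the transfer group, against 4.53, 3.66 and 5.60 in the control group (0.88 ± 0.74, limma adjusted p = 0.900). Standard errors of the 9 genes ran from 0.61 to 0.87 on the log2 scale, so the 0 calls do not show that the groups were alike.

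**Figure D5:**
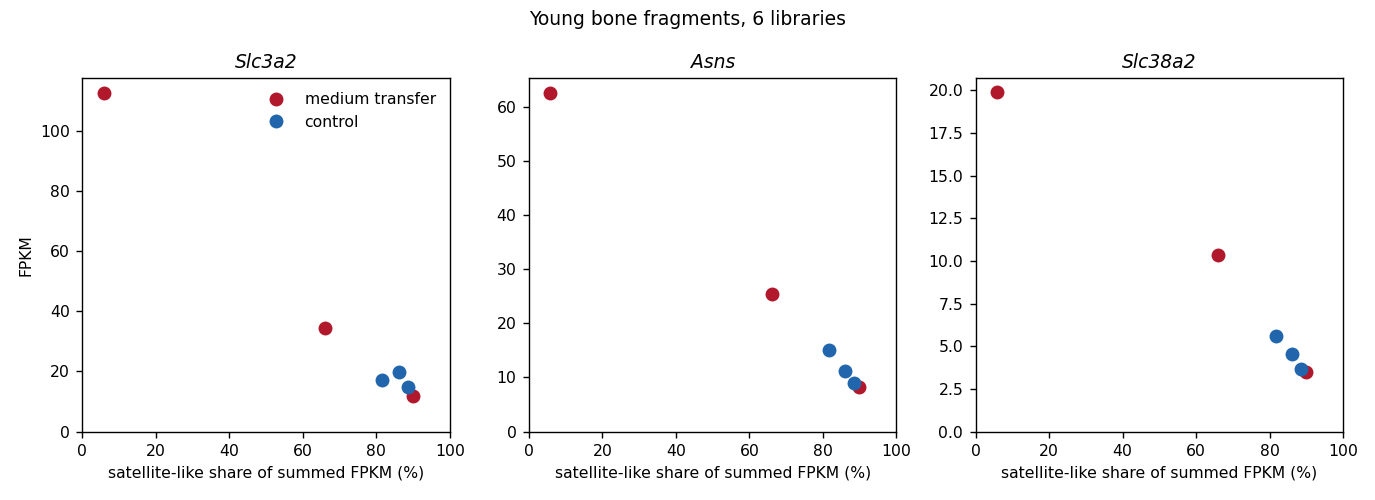
FPKM of Slc3a2, Asns and Slc38a2 (vertical axes, from 0) against the satellite-like share of summed FPKM in percent (horizontal axis) in the 6 libraries of young bone fragments, with medium transfer in red and control in blue. Transfer replicate 2, with a share of 5.795%, has the highest FPKM of all 3 genes, and transfer replicate 3, with 89.93%, the lowest.

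Transfer replicate 2, the library with the smallest satellite-like share, held the highest transfer value of 9 of the 10 genes, and transfer replicate 3, with the largest share, the lowest of 9. The median log2 fold change was 0.76 for the 9 genes and 0.45 for all genes. With libraries rescaled after removal of satellite-like, 7S and rRNA-like rows, a setting added once the data had been seen, the median of all genes was 0.00 and the log2 fold change was 0.38 for Slc3a2, 0.37 for Asns, 0.29 for Slc38a2 and -0.61 for Slc1a4, with no call. Without transfer replicate 2 the log2 fold change of Slc3a2 was 0.22 and that of Phgdh -0.14. Some marker sums of other cells differed too. The summed FPKM of 6 erythroid genes was 10510 to 20880 in the transfer group and 3838 to 8062 in the control group, and that of 4 adipocyte genes 9.83 to 95.3 in the transfer group and 3.75 to 4.27 in the control group, both without overlap. That of 5 osteoclast genes was 789 to 4901 in the transfer group and 684 to 854 in the control group, with overlap. The sums of neutrophil, B lineage, osteoblast, osteocyte and skeletal muscle genes overlapped as well. The fewest adipocyte genes above 0 in a transfer library was 1 of 4. The part of these cells in the levels was not tested. Slc7a5 at 2.35, 12.3 and 1.18 FPKM in the transfer group, and 1.58, 1.95 and 1.66 in the control group, stayed far below Slc3a2 in all 6 libraries. Of the 5 lists, 0 genes passed by limma in this comparison.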

How the data were processed

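Groups were taken from sample titles. The 4 tables hold FPKM values as the authors deposited them. The submitters' processing notes list HTSeq and mm10 without saying what each was used for, and the sources used here do not name the tool behind the FPKM. Of 48 samples described, 21 were not analysed here. Low values came out as whole fragments, within 0.1, for only 22.7% to 40.8% of values. Counts were therefore not recovered, and the count test that the design allowed for was left out.

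The 10 genes and the 5 surrounding lists were chosen with earlier results of these data known. Tests used limma 3.58.1 (R 4.3.3) on log2(FPKM + 1) and a variance prior with a trend, and covered genes whose FPKM averaged at least 1 across the fitted libraries, always within a table. The 4 oligomycin A groups shared 1 fit of 12 libraries. Adjustment was by Benjamini-Hochberg over all genes tested, with a threshold of 0.05. This scale understates changes of low genes. Each list allowed up to 4 genes past the threshold, by p, or up to 2 with the lowest p, to be named, and the 5 most alike genes were those with the highest Pearson r. Some list genes that this rule names are not reported here. The fits were also run on simulated data, with results that differed between comparisons and are not reported here.

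Positions come from GENCODE M21 (55154 of 55335 gene IDs matched) and promoter sequences from RefSeq (GRCm38.p6). The planned protein comparison was not made. In that annotation Slc7a5 lies within Gm20388 and Psat1 overlaps the pseudogene Gm3329, both on the opposite strand, and Mthfd2 holds Gm43890 on its own strand. Whether counting used strand is not stated, so the values of these 3 genes are less certain. Alternatives were other pseudocounts, filters, scalings, variance priors, fits and replicate blocks, and leaving out each library.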

Additional observations from a re-analysis of the deposited data

How the results depend on the processing

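No result changed sign while called. In treated cells, with ADP and in young bone, the number of the 10 genes past the threshold stayed within 1.5 times the reported one in every alternative run (2 or 3 genes, 0 and 0). In recipients 2 genes passed as reported, 1 when libraries were rescaled to one total and 0 when the fit held just the 6 recipient libraries. In the difference between the responses 0 passed as reported, and 1, Slc38a2, with median-of-ratios scaling or when libraries were rescaled after removal of satellite-like, 7S and rRNA-like rows, a setting added once the data had been seen. Between the vehicle groups 4 passed as reported, 2 with no filter on low values, 1 when the fit held just the 6 vehicle libraries, and 1 to 6 when single libraries were left out. The no-filter fit tests more genes and the 6-library fits use fewer samples; otherwise the cause was not tested. Rescaling to one total moved the median log2 fold change of all genes to 0.12 in treated cells, -0.12 in the difference, 0.14 between the vehicle groups and 0.80 in young bone.

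Deviations of libraries with the same replicate number correlated at -0.14 to 0.0587 in MLO-Y4 cells and at -0.228 to -0.0789 in young bone. Such values cannot show whether libraries were paired. Oligomycin A-treated cells were not set beside recipients of their supernatant in this way. With a replicate block, 3 genes passed in treated cells, Mthfd2 being the third (limma adjusted p = 0.0497), 2 in recipients, 4 between the vehicle groups and 0 elsewhere.

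Estimated depth was lowest in young bone, where the steps behind the estimate were faint. No knockdown, 1 µM ADP or protein data were used here.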
